A study of Mus musculus with 19 samples.

Results

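Gene expression in corticospinal motor neurons (CSMN) of the mouse cerebral cortex was compared between postnatal day 3 (P3) and embryonic day 18 (E18). The comparison rests on 5 of the 19 arrays of the series, the 3 titled as CSMN at P3 and the 2 titled as CSMN at E18. Mice of all groups were C57BL/6, and the labels name no mutant allele and no drug. Neurons had been marked by fluorescent microspheres carried back along their axons, then dissociated and sorted by fluorescence. The labels name sensorimotor cortex for CSMN and CPN (callosal neurons, below) alike, and do not give the site of the CSMN injections at E18 or P3. They also give neither the number of pooled mice nor their sex. Replicate arrays came from independent collections, per the series' design text. Callosal projection neurons (CPN), which join the 2 hemispheres, were collected in the same way at P3 (2 arrays) and at E18 (2 arrays) and give the same step in another type of projection neuron.

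Corticospinal neurons are pyramidal cells of layer 5 whose axons run through the brainstem into the spinal cord. Fezf2 and Bcl11b (Ctip2) are transcription factors needed for their identity and for the path of their axons. In the days around birth these axons grow down the cord while the cell bodies begin to build dendrites, ion channels and synapses.

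Each value is a log2 expression level made by the authors with RMA, so a difference of 1 is a doubling. For each of 18193 genes the brightest probe set was used. P3 and E18 were compared with limma in a model of all 9 groups of the series. A gene was called where the Benjamini-Hochberg adjusted p over all genes was under 0.05. Differences are P3 minus E18 with the standard error of the model (± SE, n = 3 and 2 arrays), and the small number of arrays limits the precision. A fold is given only where all 5 arrays lay above 6.62, the highest median of any array. Bulk values cannot tell fewer cells of a type from less RNA per cell.

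The E18 arrays stood apart from the P3 arrays in the form of their values. Values spread over probe sets with an SD of 2.07, 2.05 and 1.97 on the P3 arrays, against 1.85 and 1.77 on the E18 arrays. The 3 P3 arrays correlated with each other at 0.985 to 0.991 over the 18193 genes, and the E18 arrays at 0.949. P3 with E18 arrays correlated at 0.935 to 0.953, so the E18 arrays were no closer to each other than to some P3 arrays. The 3′ to 5′ difference of the Gapdh control was 1.73, 2.02 and 1.88 on the P3 arrays, against 1.39 and 2.07 on the E18 arrays. For the actin control it was 0.72, 0.58 and 0.80 on the P3 arrays, against 0.65 and 1.23 on the E18 arrays. The groups overlapped for both controls, and E18 array 2 was the highest of the 5 arrays for both. Its part in the differences was not tested. When genes were divided into 10 classes by level, the median difference of P3 minus E18 was -0.23 in the dimmest class and 0.50 in the brightest. Over the 10 classes these medians were -0.17 to 0.08 after a repeated quantile normalization and -0.07 to 0.06 after cyclic loess. Family medians are therefore given under these other scalings too, quantile first and loess second. A gene is said to hold where it was called in the same direction in 8 fits, namely the deposited values, both other scalings, and the model without each of the 5 arrays in turn.

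More genes were called higher than lower between P3 and E18 with the deposited values. Of 18193 genes 1890 were called (10.4%), 1442 higher (7.93%) and 448 lower (2.46%). The rises were also larger, with 1031 called genes at least 2-fold higher and 25 at least 2-fold lower. The largest called rise was 5.29 and the largest called fall 1.55. Calls that rose lay at a median level of 8.94 and calls that fell at 6.54, and 288 of the 448 genes called lower had a P3 mean under 6.62. The balance of rises and falls moved with the scaling. Repeated quantile normalization gave 877 higher and 622 lower calls and cyclic loess 720 and 274. Calls also moved with the P14 arrays, which enter the model's estimate of spread only. In a model without them the deposited values gave 4030 calls, 2628 higher and 1402 lower. Repeated quantile normalization with that model, a setting chosen after the data were seen, gave 1448 higher and 1464 lower. Higher calls over all genes numbered 549 without P3 array 1, 646 without P3 array 2 and 1402 without P3 array 3. Counts of list members under these fits are to be read beside these totals. Of the 1890 genes 337 held in all 8 fits (1.85% of all genes), 315 higher (1.73%) and 22 lower (0.121%). The count of all calls also moved with single arrays, being 621 without P3 array 1, 710 without P3 array 2 and 1009 without E18 array 2. Groups without overlap were common, with every P3 array above every E18 array for 25.2% of all genes and below for 24.9%. Lack of overlap is therefore no separate support for a gene already called.

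**Figure D1:**
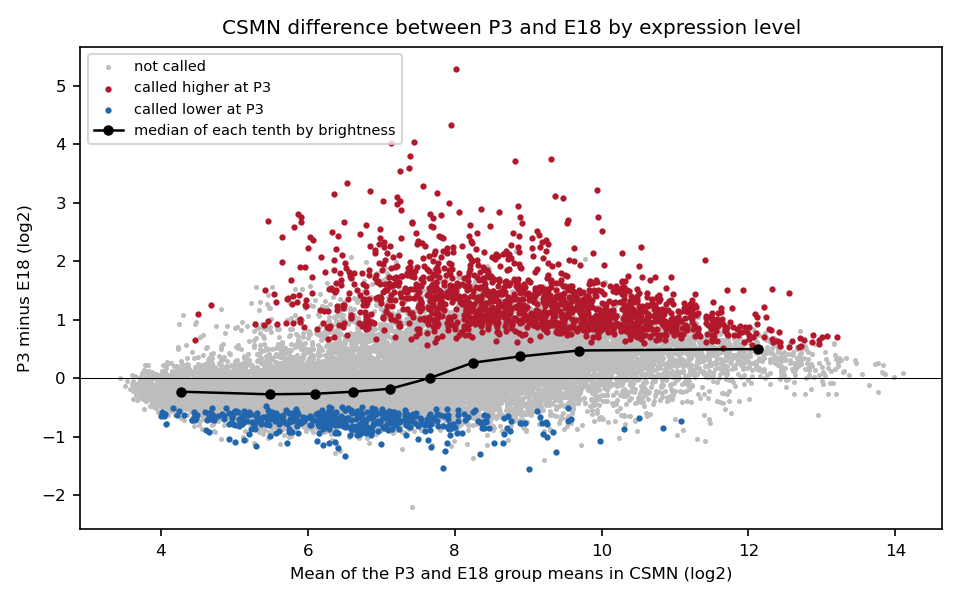
Difference of P3 minus E18 in CSMN (log2, y axis) against the mean of both group means (log2, x axis) for 18193 genes, with called genes coloured and the median of each of the 10 classes of level in black, drawn at the middle of its range. The medians run from -0.23 at the dim end to 0.50 at the bright end, and the largest differences are rises.

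The sort was checked against markers. Transcription factor genes that define subcerebral projection neurons were abundant on every array. Bcl11b measured 12.62, 12.60 and 12.23 at P3, against 12.19 and 12.61 at E18. Fezf2 measured 10.95, 10.75 and 10.31 at P3, against 10.75 and 10.42 at E18. The 2 groups overlapped for both genes. The proliferation gene Mki67 measured 6.72, 6.39 and 7.03 at P3, against 6.75 and 6.87 at E18, near the array medians. Of 26 cell cycle genes 1 was called higher (3.85%, against 7.93% of all genes) and 2 lower, against 2.46% of all genes.

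Markers of other cell types were mostly low and not called, while 7.93% of all genes were called higher and 2.46% lower. The median level of 20 interneuron and Cajal-Retzius markers was 5.77 to 6.47 on the P3 arrays, against 5.86 to 6.02 on the E18 arrays. None of the 20 passed limma's test, and 2 were lower at an unadjusted p under 0.05. Of 18 microglial genes 0 were called and 1 was higher at an unadjusted p under 0.05, and of 5 blood genes 0 were called and 1 was lower at that p. Of 15 oligodendrocyte lineage genes 0 were called, with 2 higher and 1 lower at that p. Dimmer probe sets of the myelin gene Mbp rose by 1.39 and 1.74 (adjusted p = 0.0259 and 0.0425 over all probe sets), and the rest of its probe sets were not called. Of 18 endothelial and mural genes 1 was called, the growth factor receptor gene Flt1, which fell by 0.65 ± 0.19 (adjusted p = 0.045). Its call was lost without any 1 of the 5 arrays but was made under both other scalings.

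Some genes of astrocytes were higher at P3. Of 18 astrocyte genes 5 rose (27.8%, against 7.93% of all genes) and 0 fell, and their median level was 7.05 to 7.50 on the P3 arrays, against 6.90 to 7.31 on the E18 arrays. The glutamate transporter gene Slc1a2 measured 8.78, 8.90 and 9.03 at P3, against 7.35 and 6.72 at E18. Its other probe sets differed by -0.55 to 0.12 and were not called. The secreted glycoprotein gene Sparcl1 measured 11.30, 11.02 and 11.16 at P3, against 9.58 and 9.40 at E18. The glutamine synthetase gene Glul measured 10.45, 10.40 and 10.11 at P3, against 9.22 and 9.20 at E18. These 3 held in all 8 fits, and every P3 array lay above every E18 array, as for 25.2% of all genes. The gap junction gene Gja1 measured 7.37, 6.48 and 7.90 at P3, against 4.93 and 4.23 at E18, a difference of 2.67 ± 0.66 (adjusted p = 0.0225). The other probe sets of Gja1 differed by -0.51 to 1.37 and none was called. Its call was lost without E18 array 2 (2.32, adjusted p = 0.13) and without P3 array 1 or 3, and the remaining riser, the secreted chaperone gene Clu, was called in 4 of the 8 fits. The astrocyte filament gene Gfap measured 6.88, 6.85 and 6.75 at P3, against 7.32 and 7.24 at E18. The water channel gene Aqp4 measured 7.64, 7.50 and 7.54 at P3, against 7.84 and 7.82 at E18. Neither was called. The other 2 probe sets of Aqp4 differed by 0.40 and 0.44 and were not called either. Aldh1l1, a folate enzyme gene used as an astrocyte marker, measured 7.16, 6.80 and 6.60 at P3, against 6.61 and 6.43 at E18 and was not called, and on this scale no marker is at 0.

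Of 18 genes of radial glia and intermediate progenitors 1 rose, Fabp7 (5.56%, against 7.93% of all genes). The 1 that fell, against 2.46% of all genes, was the intermediate filament gene Nes, called in 2 of the 8 fits. The progenitor factor gene Sox2 measured 5.50, 5.22 and 7.52 at P3, against 4.45 and 4.58 at E18, with the third P3 array far above the others, and was not called (limma adjusted p = 0.133). The part of glial or progenitor RNA in the differences reported here was not tested.

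The 12 largest rises were spread over several roles and all held in the 8 fits. The largest was Fabp7, a brain fatty acid binding protein best known from radial glia and astrocytes, at 10.44, 9.83 and 11.73 at P3, against 5.89 and 4.86 at E18. Its difference was 5.29 ± 0.66 (adjusted p = 0.000354), and both E18 arrays lay under the median of their array. The third P3 array, which also had the highest Sox2, was the highest of the 5 for Fabp7. The neuropeptide gene Cck measured 10.37, 10.003 and 9.99 at P3, against 6.05 and 5.52 at E18, a difference of 4.34 ± 0.31 (adjusted p = 4.81e-06). Every P3 array lay more than 3 units above every E18 array.

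Among the other leading rises, Cacna2d3, St6galnac5 and Crym were above the array medians at E18, which allows a fold. Cacna2d3, which encodes an auxiliary α2δ subunit of voltage-gated calcium channels, measured 11.29, 11.23 and 11.05 at P3, against 7.16 and 7.71 at E18. It was 13.5-fold higher at P3, a difference of 3.76 ± 0.27 (adjusted p = 4.81e-06). St6galnac5, a sialyltransferase that builds gangliosides, measured 10.73, 10.46 and 10.86 at P3, against 7.19 and 6.73 at E18. It was 13.2-fold higher, a difference of 3.73 ± 0.32 (adjusted p = 1.59e-05), with all 3 of its probe sets in the same direction.

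Crym, which encodes the thyroid hormone binding protein μ-crystallin and is a known marker of corticospinal neurons, measured 11.56, 11.62 and 11.45 at P3, against 8.28 and 8.37 at E18. It was 9.33-fold higher at P3, a difference of 3.22 ± 0.43 (adjusted p = 0.000673).

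The other leading rises were dim at E18. Epha4, a receptor for ephrins in axon guidance, measured 8.76, 9.27 and 9.52 at P3, against 5.13 and 6.03 at E18, a difference of 3.60 ± 0.33 (adjusted p = 2.88e-05). All 5 of its probe sets pointed the same way, though those at 0.05 and 1.21 were not called. The activity-regulated transcription factor gene Egr3 measured 8.70, 9.38 and 9.01 at P3, against 4.96 and 6.01 at E18, a difference of 3.54 ± 0.46 (adjusted p = 0.000457), but the difference of its other probe set was -0.26 and was not called. For both genes every P3 array lay above every E18 array, as for 25.2% of all genes.

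Brinp3, of a family of neural proteins linked to cell cycle control, measured 9.45, 9.50 and 9.47 at P3, against 5.99 and 4.87 at E18, a difference of 4.05 ± 0.39 (adjusted p = 3.65e-05). Snhg11, a noncoding RNA that hosts a small nucleolar RNA, measured 9.41, 8.78 and 9.24 at P3, against 5.19 and 5.06 at E18, a difference of 4.02 ± 0.64 (adjusted p = 0.00201). Ankrd34b, an ankyrin repeat gene, measured 9.36, 9.12 and 9.39 at P3, against 6.21 and 4.76 at E18, a difference of 3.81 ± 0.36 (adjusted p = 3.44e-05). Every E18 value of these 3 genes lay under the array medians, and every P3 value lay above them. The X-linked protocadherin gene Pcdh11x measured 7.93, 7.96 and 8.71 at P3, against 4.79 and 4.93 at E18, a difference of 3.34 ± 0.37 (adjusted p = 0.000139). The membrane protein gene Tmem47 measured 9.45, 8.94 and 9.26 at P3, against 5.78 and 6.07 at E18, a difference of 3.29 ± 0.26 (adjusted p = 8.77e-06). Both were also under the array medians at E18.

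**Figure D2:**
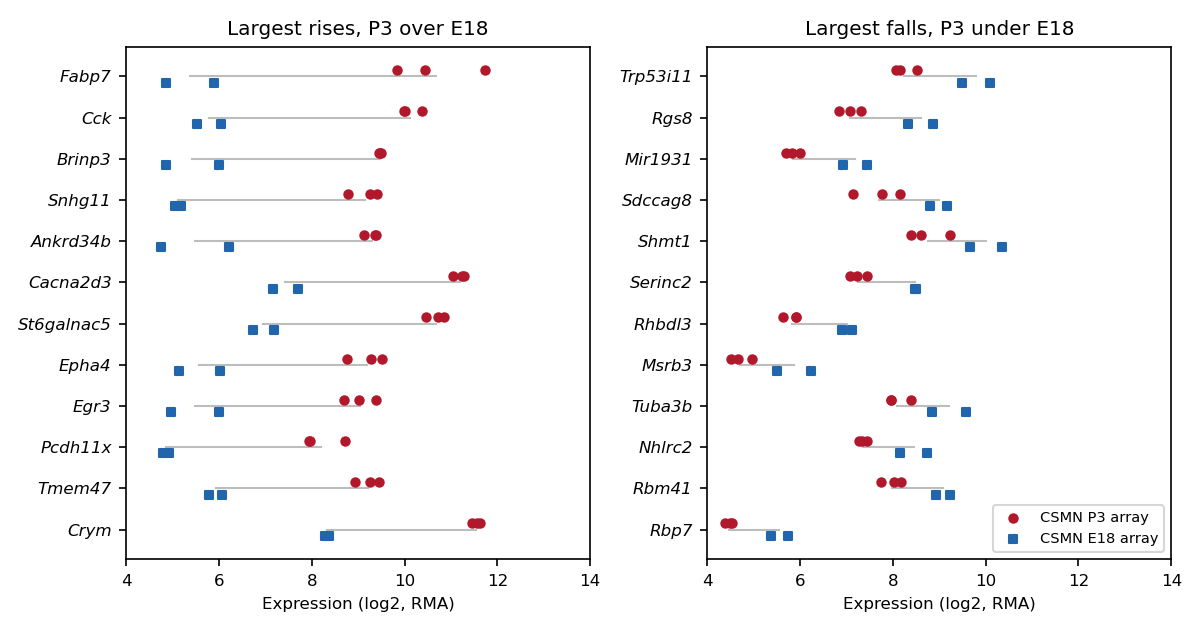
Log2 expression (x axis) of the 12 genes with the largest rise (left) and the 12 with the largest fall (right) past the test, with each CSMN array as a point (P3 circles, E18 squares) and a line joining the group means. The groups do not overlap for any gene drawn, and over all genes P3 lies wholly above E18 for 25.2% and below for 24.9%. The rises span 3.22 to 5.29 units while the falls span 1.09 to 1.55.

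RefSeq promoter windows, 250 bases before to 50 after a start, were found for 8 of the 12 leading risers, in 10 windows on GRCm38.p6. They were searched on both strands for the CRE (TGACGTCA), the E-box (CACGTG) and the EGR site (GCGTGGGCG), with no overlap between motifs in these windows. Of all 32851 windows 1.79% hold the CRE, 7.15% the E-box and 0.612% the EGR site. In the 10 windows the E-box alone was found, with its first base at position -66 from the start in Cck and at -202 in Tmem47. The Cck window is shown because Cck was the largest rise of a neuropeptide gene, with the E-box in capitals, at chr9:121495645-121495944 on the minus strand. It holds 10 CG pairs and 59.3% G and C.
Cck: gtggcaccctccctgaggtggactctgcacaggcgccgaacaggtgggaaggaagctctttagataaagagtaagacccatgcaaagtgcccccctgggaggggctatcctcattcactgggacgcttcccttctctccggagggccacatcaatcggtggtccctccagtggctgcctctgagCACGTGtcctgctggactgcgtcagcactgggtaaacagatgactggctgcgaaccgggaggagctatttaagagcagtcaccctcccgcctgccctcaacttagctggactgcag

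Falls were small and few of them held. Trp53i11, a gene induced by p53, measured 8.51, 8.15 and 8.06 at P3, against 10.10 and 9.48 at E18. It fell by 1.55 ± 0.28 (adjusted p = 0.0047), 2.92-fold lower, the largest called fall. Serinc2, a member of a family of membrane proteins linked to serine incorporation, measured 7.23, 7.45 and 7.07 at P3, against 8.48 and 8.49 at E18 and fell by 1.23 ± 0.23 (adjusted p = 0.00562). The rhomboid family gene Rhbdl3 measured 5.64, 5.92 and 5.91 at P3, against 6.90 and 7.12 at E18 and fell by 1.19 ± 0.17 (adjusted p = 0.000971), and Nhlrc2, named for its NHL repeats, measured 7.44, 7.33 and 7.26 at P3, against 8.16 and 8.73 at E18 and fell by 1.10 ± 0.18 (adjusted p = 0.00201). These 4 were the ones of the 12 largest falls that held in all 8 fits. Rgs8, a regulator of G-protein signalling, fell by 1.52 ± 0.31 (adjusted p = 0.00835), but not without E18 array 1 (-1.25, adjusted p = 0.0537). The calls of Msrb3 and Rbp7 were lost without E18 array 2 (-0.80, adjusted p = 0.0716 and -0.90, adjusted p = 0.0565), and every value of both genes lay under the array medians. The other 5, Mir1931, Sdccag8, Shmt1, Tuba3b and Rbm41, fell by 1.10 to 1.33 and were called in 1, 6, 5, 5 and 6 of the 8 fits.

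Some genes of subcerebral and corticospinal identity rose, while the factors that define it were not called. Of 21 measured genes 5 rose (23.8%, against 7.93% of all genes) and 0 fell, and 1 was called lower after loess, with a median of 0.28, and -0.19 and -0.08 under the other scalings. Bcl11b differed by 0.09 ± 0.38 (adjusted p = 0.888), Fezf2 by 0.08 ± 0.25 (adjusted p = 0.833), and Ldb2, a LIM domain binding cofactor, by -0.03 ± 0.21 (adjusted p = 0.933), none called in any of the 8 fits. The other 3 probe sets of Bcl11b differed by -0.19 to -0.22, and none was called.

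The genes of the list that rose and held were Crym, Crim1, Cntn6 and Igfbp4. Crim1, a membrane protein that binds growth factors, measured 10.17, 10.41 and 10.21 at P3, against 7.67 and 8.04 at E18 and was 5.29-fold higher. Igfbp4, an insulin-like growth factor binding protein, measured 10.02, 9.83 and 9.52 at P3, against 7.98 and 7.67 at E18 and was 3.91-fold higher. Of its other probe sets 1 rose by 2.27 and was called, and the rest differed by -0.33 to 0.55 and were not. All P3 arrays lay above both E18 arrays for the genes of this list that held, as for 25.2% of all genes. Pcp4, a calmodulin-binding peptide gene of deep-layer neurons, measured 11.71, 12.35 and 12.17 at P3, against 11.23 and 10.90 at E18, a difference of 1.01 ± 0.29 (adjusted p = 0.0415), and was called in 1 of the 8 fits only. Npr3, a natriuretic peptide receptor gene, and Tcerg1l differed by 1.01 ± 0.38 (adjusted p = 0.0921) and -0.01 ± 0.23 (adjusted p = 0.971) and were not called.

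Of 23 callosal and upper-layer genes 5 rose (21.7%, against 7.93% of all genes) and 0 fell, with 3 rising after loess and 2 to 4 when any 1 of the 5 arrays was left out, and 2 held. The lipoprotein lipase gene Lpl measured 8.27, 8.08 and 9.76 at P3, against 5.51 and 5.94 at E18. The cadherin gene Cdh10 measured 8.56, 8.89 and 8.62 at P3, against 7.07 and 6.63 at E18. Lpl was highest on P3 array 3. No other probe set of Lpl (-0.03) or of Cdh10 (-0.45 to 0.37) was called. The upper-layer factor gene Cux2 measured 6.97, 6.85 and 9.23 at P3, against 5.91 and 6.24 at E18, again highest on P3 array 3, and was not called (limma adjusted p = 0.104). Of 15 layer 6 and subplate genes 1 rose (6.67%, against 7.93% of all genes), Tmem163, a zinc-binding vesicle protein gene called in 3 of the 8 fits.

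Cadherins and other adhesion molecules, which sort cells and organize synapses, were called for many members. Of 49 measured members 19 rose (38.8%, against 7.93% of all genes) and 0 fell, and 14 of them held in all 8 fits, against 1.73% of all genes. The list's median was 0.75, and 0.40 and 0.36 under the other scalings, and 16 to 18 rose when any 1 of the 5 arrays was left out. After repeated quantile normalization 2 members were called lower, and after loess 1. The type II cadherin gene Cdh8 measured 9.83, 9.60 and 9.21 at P3, against 7.30 and 6.83 at E18 and was 5.59-fold higher at P3, a difference of 2.48 ± 0.32 (adjusted p = 0.000424). Cdh11, of the same class, measured 9.13, 9.04 and 8.88 at P3, against 6.53 and 6.67 at E18, a difference of 2.41 ± 0.35 (adjusted p = 0.00108). Every P3 array lay above every E18 array for both cadherins, as for 25.2% of all genes.

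Cntn4 and Cntn6 encode contactins, immunoglobulin-domain adhesion molecules anchored to the axonal membrane. Cntn4 measured 7.58, 7.64 and 7.66 at P3, against 4.84 and 5.54 at E18, a difference of 2.44 ± 0.46 (adjusted p = 0.00599). Cntn6 measured 11.59, 11.37 and 11.12 at P3, against 9.30 and 9.12 at E18 and was 4.44-fold higher, a difference of 2.15 ± 0.33 (adjusted p = 0.00176). Cntn2, a contactin of the growth cone list, differed by 0.05 (adjusted p = 0.887) and was not called. The synaptic organizer neuroligin 1 gene, Nlgn1, measured 9.65, 9.38 and 9.84 at P3, against 7.36 and 7.64 at E18 and was 4.36-fold higher, although its other probe set differed by -0.24 and was not called. Further members that held, picked here after their values were seen, were the protocadherin gene Pcdh7 at 10.29, 10.01 and 10.04 at P3, against 7.81 and 8.22 at E18, the complement-like synaptic ligand gene C1ql3 at 9.70, 9.65 and 9.56 at P3, against 7.48 and 7.61 at E18, and the latrophilin ligand gene Flrt3 at 8.68, 8.50 and 7.87 at P3, against 5.86 and 7.02 at E18. Cntnap2, a neurexin-like protein of axons, measured 8.95, 8.65 and 8.44 at P3, against 6.43 and 7.19 at E18. None of these 4 genes had overlapping groups, and for 25.2% of all genes every P3 array likewise lay above every E18 array. Other probe sets of Pcdh7 differed by -0.21 and 0.03 and were not called. Those of Cntnap2 differed by 2.32, which was called, and by -0.27, which was not.

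Of 48 receptors and ligands of axon guidance 11 rose (22.9%, against 7.93% of all genes) and 0 fell, with a median of 0.24, and 0.02 under each of the other scalings, and 9 and 7 rising under them. Without any 1 of the 5 arrays 7 to 11 rose, fewest without E18 array 2, and 3 held in all fits. Besides Epha4 these were Sema3c, a secreted semaphorin, at 10.16, 10.62 and 10.35 at P3, against 8.08 and 7.76 at E18, and the netrin receptor gene Dcc at 7.43, 6.58 and 7.35 at P3, against 5.16 and 4.63 at E18. Sema3c was 5.5-fold higher, a difference of 2.46 ± 0.25 (adjusted p = 5.47e-05), though 1 of its 2 probe sets did not rise. Dcc differed by 2.22 ± 0.33 (adjusted p = 0.00139). Of its other probe sets, 1 rose by 1.79 and was called, and 1 differed by -0.55 and was not. The secreted cues Sema3e and Slit2 rose by 2.27 ± 0.43 (adjusted p = 0.00607) and 1.90 ± 0.40 (adjusted p = 0.0104). Both calls were lost without E18 array 2 (2.03, adjusted p = 0.0535 and 1.04, adjusted p = 0.105), and 1 of 3 Slit2 probe sets was higher at P3.

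Growth cone and axon extension genes were among the brightest at both ages. Of 35 measured 1 rose (2.86%, against 7.93% of all genes) and 0 fell, while 3 fell after loess. The riser was Gap43, the growth-associated membrane protein, at 13.59, 13.59 and 13.53 at P3, against 13.19 and 12.52 at E18, and it was called in 2 of the 8 fits. The list's median was 0.19, but -0.04 and -0.37 under the other scalings, and the median level was 12.80 to 12.94 on the P3 arrays, against 12.42 to 12.94 on the E18 arrays. The microtubule genes Dcx and Tubb3 differed by 0.61 ± 0.42 (adjusted p = 0.325) and 0.03 ± 0.24 (adjusted p = 0.939). Neither was called in any of the 8 fits.

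Of 23 neurofilament and axonal cytoskeleton genes 6 rose (26.1%, against 7.93% of all genes) and 0 fell, with a median of 0.58, and 0.12 and 0.03 under the other scalings. The count was 3 under each of those scalings and without P3 array 1, 2 or 3. The 3 that held were the tubulin gene Tuba4a at 12.38, 12.31 and 12.56 at P3, against 10.34 and 10.44 at E18, the microtubule-binding Map7d2 at 10.26, 10.04 and 9.80 at P3, against 8.08 and 8.96 at E18, and the middle neurofilament subunit gene Nefm at 10.62, 10.80 and 10.52 at P3, against 9.09 and 9.61 at E18. Tuba4a was 4.07-fold, Map7d2 2.85-fold and Nefm 2.45-fold higher at P3. The light and heavy subunit genes Nefl and Nefh differed by 0.61 ± 0.25 (adjusted p = 0.113) and 1.09 ± 0.43 (adjusted p = 0.105) and were not called. The second probe set of Nefl rose by 1.08 (adjusted p = 0.0165 over all probe sets), so the call for Nefl depends on the probe set. Kif5a and Dync1i1, motor subunits of axonal transport, were each called in 2 of the 8 fits.

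**Figure D3:**
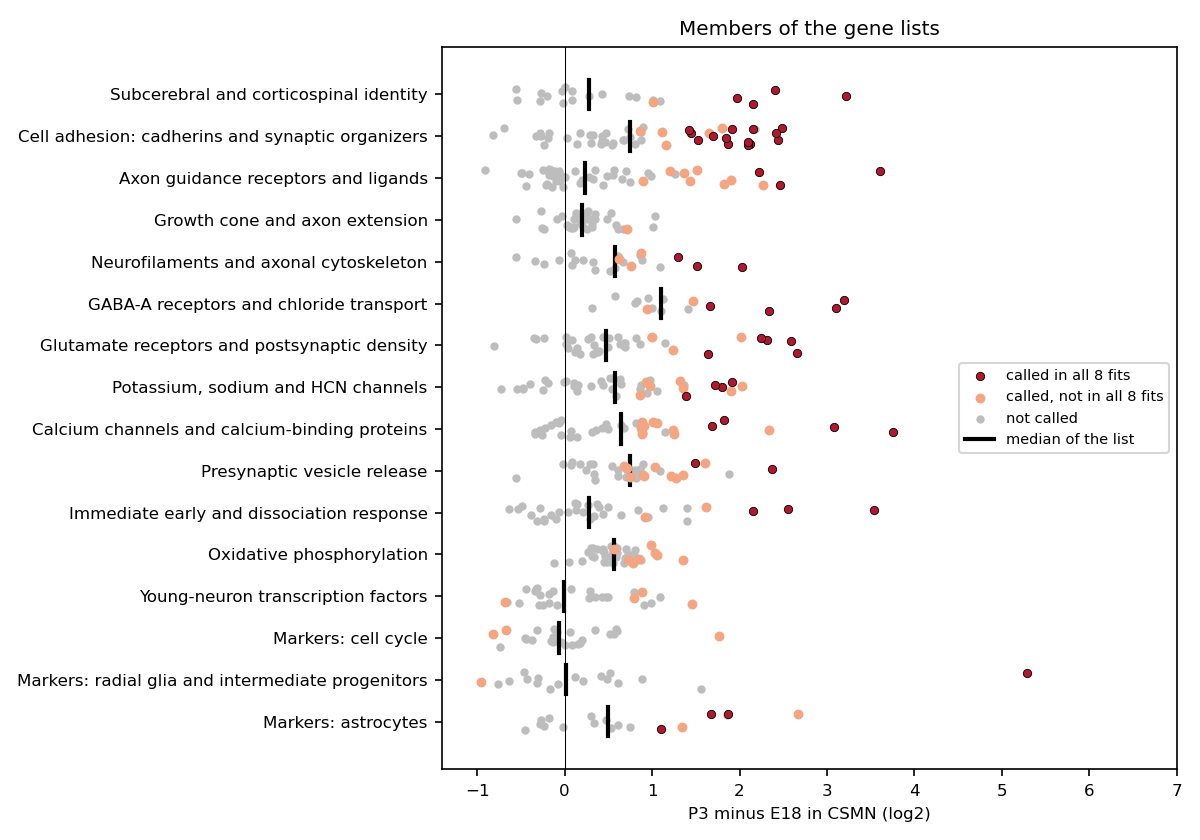
Differences of P3 minus E18 in CSMN (log2, x axis) for the members of 16 gene lists, 1 row per list and 1 point per gene, with called genes in colour, those called in all 8 fits outlined, and a black bar at each list's median. Cell adhesion has 14 outlined members of 49, while growth cone and oxidative phosphorylation genes have none.

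GABA-A receptor and chloride transport genes had the highest median of the families listed. Of 15 measured 6 rose (40%, against 7.93% of all genes) and 0 fell, with a median of 1.11, and 1.0 and 1.03 under the other scalings. Without any 1 of the 5 arrays 4 to 7 rose, and 4 members held. The receptor subunit gene Gabra4 measured 8.77, 8.32 and 8.26 at P3, against 5.44 and 5.07 at E18, a difference of 3.20 ± 0.31 (adjusted p = 3.65e-05). Gabra2 measured 8.74, 8.21 and 9.37 at P3, against 5.32 and 6.01 at E18, a difference of 3.11 ± 0.40 (adjusted p = 0.000433). Of its other probe sets 1 rose by 1.45 and was called, and the rest differed by -0.24 to 0.75 and were not. Gabrb1 measured 10.47, 10.09 and 10.49 at P3, against 7.30 and 8.73 at E18 and was 5.05-fold higher. All P3 values of these 3 subunits lay above all E18 values, as for 25.2% of all genes, and the E18 arrays differed most from each other for Gabrb1. Slc12a5 encodes KCC2, the potassium-chloride cotransporter whose activity makes GABA inhibitory in mature neurons. It measured 11.10, 11.11 and 11.13 at P3, against 9.73 and 9.17 at E18 and was 3.16-fold higher at P3, a difference of 1.66 ± 0.24 (adjusted p = 0.00115), but its other, dimmer probe set was lower at P3, by a difference of -0.60 (adjusted p = 0.0367 over all probe sets). The direction for Slc12a5 therefore rests on the brighter probe set. Slc12a2, which encodes the chloride importer NKCC1, differed by 0.83 ± 0.31 (adjusted p = 0.0946) and was called in 1 of the 8 fits, without E18 array 2. Gabra3 rose by 1.47 ± 0.35 (adjusted p = 0.0188) and was called in 5 of the 8 fits.

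Gabra2, Gabra4 and Gabrb1 are members of 1 cluster of receptor genes on chromosome 5. The RefSeq windows of Gabra4 and Gabra2, the members of the cluster with the larger rises, are shown for comparison, both on the minus strand of GRCm38.p6. None of the 3 motifs searched above occurs in either, so there are no capitals. The Gabra4 window, chr5:71658259-71658558, holds 12 CG pairs and 58.7% G and C, and the Gabra2 window, chr5:71095800-71096099, 25 CG pairs and 70.0%.
Gabra4: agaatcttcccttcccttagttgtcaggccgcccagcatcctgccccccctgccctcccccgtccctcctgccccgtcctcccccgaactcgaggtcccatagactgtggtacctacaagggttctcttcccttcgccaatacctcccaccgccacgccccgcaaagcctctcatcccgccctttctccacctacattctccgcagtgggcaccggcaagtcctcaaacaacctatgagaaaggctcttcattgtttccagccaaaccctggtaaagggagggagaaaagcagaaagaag
Gabra2: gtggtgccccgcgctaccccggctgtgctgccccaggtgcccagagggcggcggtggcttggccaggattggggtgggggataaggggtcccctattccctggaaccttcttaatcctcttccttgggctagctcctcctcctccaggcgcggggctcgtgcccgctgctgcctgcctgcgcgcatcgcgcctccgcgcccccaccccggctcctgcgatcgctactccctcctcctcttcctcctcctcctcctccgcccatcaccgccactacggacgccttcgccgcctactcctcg

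Among 40 genes of glutamate receptors and the postsynaptic density, 8 rose (20%, against 7.93% of all genes) and 0 fell, with 6 and 5 rising under the other scalings. The median was 0.47, and 0.23 and 0.21 under those scalings, and 5 held, Ddn, Gria3, Gria1, Nrgn and Grm7. Ddn, the gene of the dendritic protein dendrin, measured 10.88, 11.10 and 10.59 at P3, against 8.83 and 7.57 at E18 and was 6.31-fold higher at P3. Nrgn, which encodes the calmodulin-binding neurogranin, measured 11.90, 11.87 and 11.23 at P3, against 9.47 and 9.37 at E18 and was 4.73-fold higher. Of the 4 AMPA receptor subunit genes 2 rose, Gria1 at 8.91, 8.71 and 8.51 at P3, against 6.91 and 5.88 at E18 and Gria3 at 7.26, 6.61 and 7.47 at P3, against 4.08 and 4.97 at E18. Gria2 and Gria4 differed by 0.34 (adjusted p = 0.388) and 0.30 (adjusted p = 0.408) and were not called. Of the NMDA receptor genes, Grin3a rose by 2.02 ± 0.48 (adjusted p = 0.0179) and was called in 3 of the 8 fits, while Grin2b differed by 0.63 ± 0.38 (adjusted p = 0.265) and Grin2a by -0.35 ± 0.20 (adjusted p = 0.243). A dimmer probe set of Grin2b rose by 2.39 (adjusted p = 0.0168 over all probe sets), and the other 2 were not called. Camk2a, the α subunit of a synaptic kinase, differed by 0.14 ± 0.25 (adjusted p = 0.704).

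Of 40 potassium, sodium and HCN channel genes 11 rose (27.5%, against 7.93% of all genes) and 0 fell, and of 37 calcium channel and calcium-binding genes 13 rose (35.1%) and 0 fell. Their medians were 0.57 and 0.65, with 0.26 and 0.23 after repeated quantile normalization and 0.24 and 0.23 after loess, and 4 members of each held. Without any 1 of the 5 arrays 5 to 9 channel genes rose, fewest without E18 array 2, and 5 to 8 calcium genes, fewest without P3 array 2. Under each of the other scalings 8 channel genes rose and 1 fell, and 5 calcium genes rose, with 1 calcium gene falling after repeated quantile normalization. Kcnd2, the pore subunit of an A-type potassium current, measured 10.40, 10.24 and 10.20 at P3, against 8.10 and 8.62 at E18 and was 3.78-fold higher. Kcnip4, a partner of such channels, measured 7.13, 7.37 and 7.50 at P3, against 5.45 and 5.62 at E18, and the leak channel gene Kcnk1 9.14, 8.80 and 8.56 at P3, against 7.0 and 7.22 at E18. The groups did not overlap for any of these, and P3 lay wholly above E18 for 25.2% of all genes. The other probe set of Kcnk1 differed by 0.01, and those of Kcnip4 by -0.32 and 1.35, none called.

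In the calcium list Cacna2d3 was followed by Vsnl1, a neuronal calcium sensor gene, at 10.84, 11.22 and 10.98 at P3, against 7.99 and 7.87 at E18, which was 8.47-fold higher. The ryanodine receptor gene Ryr2 measured 8.50, 8.21 and 8.32 at P3, against 6.73 and 6.31 at E18 and the α2δ subunit gene Cacna2d1 10.16, 10.29 and 10.43 at P3, against 8.64 and 8.58 at E18. None of these calcium genes had overlapping groups, and P3 lay wholly above E18 for 25.2% of all genes. The calcium buffer gene Calb1 rose by 2.34 ± 0.47 (adjusted p = 0.00809), with 1 E18 array at 7.80 and the other at 6.31, and was not called without E18 array 1 (1.60, adjusted p = 0.0665). Kcnt2 rose by 2.03 ± 0.49 (adjusted p = 0.0193) and was called in 4 of the 8 fits. Kcnf1 rose by 1.90 ± 0.39 (adjusted p = 0.00931) and lost its call without E18 array 2 (1.45, adjusted p = 0.0936).

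Of 37 presynaptic vesicle genes 12 rose (32.4%, against 7.93% of all genes) and 0 fell, with a median of 0.74, and 0.38 under each of the other scalings. The count was 6 and 4 under those scalings and 3 without E18 array 2, and 2 members held. Sv2b, a synaptic vesicle glycoprotein gene, measured 10.36, 10.54 and 10.37 at P3, against 8.01 and 8.11 at E18 and was 5.15-fold higher at P3. The membrane fusion ATPase gene Nsf measured 10.83, 10.70 and 10.67 at P3, against 9.24 and 9.27 at E18 and was 2.8-fold higher, with 2 of its 4 probe sets in that direction. Syp, Rims2 and Syn2, of vesicle membrane, active zone and vesicle surface, rose by 1.60 ± 0.34 (adjusted p = 0.0104), 1.36 ± 0.35 (adjusted p = 0.0278) and 1.27 ± 0.27 (adjusted p = 0.0105), in 6, 4 and 5 of the 8 fits. The vesicular glutamate transporter gene Slc17a7 stayed near the array median at 7.11, 6.93 and 6.64 at P3, against 6.43 and 6.86 at E18.

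Of 41 neuropeptide and G-protein modulator genes 8 rose (19.5%, against 7.93% of all genes) and 1 fell, Rgs8. After repeated quantile normalization 5 rose and 3 fell, after loess 3 rose and 1 fell, and without any 1 of the 5 arrays 3 to 7 rose, fewest without P3 array 1. Cck and Rgs4 held. Rgs4, which dampens G-protein signals, measured 10.10, 10.37 and 10.31 at P3, against 8.85 and 7.73 at E18 and was 3.91-fold higher at P3. Rgs17 rose by 1.46 ± 0.33 (adjusted p = 0.0151) and the neuropeptide gene Cartpt by 1.44 ± 0.42 (adjusted p = 0.0449), in 5 and 2 of the 8 fits.

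Of 34 immediate early and dissociation response genes 5 rose (14.7%, against 7.93% of all genes) and 0 fell, with a median of 0.28, and 3 rose without P3 array 1. The 3 that held were Egr3, Fosl2 at 8.58, 7.84 and 8.38 at P3, against 6.06 and 5.36 at E18, and Egr1 at 9.76, 8.63 and 8.79 at P3, against 6.49 and 7.32 at E18, all activity-regulated transcription factor genes. The other probe set of Fosl2 differed by -0.08 and was not called. Fos measured 7.48, 7.53 and 7.69 at P3, against 6.88 and 5.45 at E18 and was not called (adjusted p = 0.0664). The neurons were dissociated before the sort, and whether handling moved these genes was not tested.

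Of 19 genes of thyroid hormone binding and response 3 rose (15.8%, against 7.93% of all genes) and 0 fell, and these 3 held. The list's median was 0.05, and -0.09 and -0.16 under the other scalings. Besides Crym and Nrgn this was Klf9, a hormone-responsive transcription factor gene, at 9.49, 9.81 and 10.10 at P3, against 6.89 and 6.94 at E18, 7.41-fold higher at P3. By sign 5 of its 7 probe sets were higher. Of these the ones other than the brightest differed by 3.95 and 1.06, both called, and by 0.32 and 0.001, not called. The receptor genes Thra and Thrb differed by 0.43 ± 0.23 (adjusted p = 0.22) and 0.07 ± 0.20 (adjusted p = 0.825).

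Of 36 splicing and RNA-binding regulators 8 rose (22.2%, against 7.93% of all genes) and 0 fell, with a median of 0.45, and 0.14 under each of the other scalings. The count was 4 under each of them and 5 without P3 array 1. The 3 that held were Mbnl1, Rbfox3 and Mbnl2. Mbnl1, of the muscleblind family, measured 9.83, 9.74 and 9.76 at P3, against 7.60 and 7.73 at E18 and was 4.33-fold higher, by 1 of its 3 probe sets. Rbfox3, which encodes the neuronal nuclear antigen NeuN, measured 12.85, 12.82 and 12.38 at P3, against 10.97 and 11.37 at E18 and was 2.84-fold higher, and of its other 2 probe sets 1 rose by 2.46 (adjusted p = 0.000514 over all probe sets) and 1 differed by 0.13 and was not called. Mbnl2 measured 8.91, 8.30 and 8.68 at P3, against 7.13 and 7.17 at E18 and was 2.79-fold higher. Of its other probe sets 1 rose by 1.82 and was called, and the rest differed by -0.17 to -0.09 and were not. Of 43 chromatin regulators 1 rose (2.33%, against 7.93% of all genes) and 0 fell. The riser was the DNA methyltransferase gene Dnmt3a, which held at 10.36, 10.09 and 10.52 at P3, against 8.77 and 9.26 at E18. The median of that list was 0.29, but -0.07 under both other scalings, and 3 members fell after repeated quantile normalization.

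Of 28 transcription factor genes of young neurons 3 rose (10.7%, against 7.93% of all genes) and 1 fell, and none held. After repeated quantile normalization 1 rose and 2 fell, and after loess 0 rose and 2 fell. Tcf4 measured 11.37, 11.20 and 11.45 at P3, against 10.46 and 9.31 at E18, a difference of 1.46 ± 0.27 (adjusted p = 0.0048), and was lost after loess. Neurod2, a factor of cortical projection neurons, measured 10.30, 10.06 and 10.15 at P3, against 10.88 and 10.83 at E18. It fell by 0.69 ± 0.21 (adjusted p = 0.0491), a call lost without any 1 of the 5 arrays. Under each of the other scalings its difference was -1.18 and was called (limma adjusted p = 0.000382 and 0.000438). Sox11 and Sox4, factors of immature neurons, differed by -0.18 ± 0.20 (adjusted p = 0.538) and -0.52 ± 0.26 (adjusted p = 0.191), and Sox4 was called lower under both other scalings. All 8 probe sets of Sox4 were lower at P3, and 1 of the dimmer ones fell by 1.89 (adjusted p = 0.027 over all probe sets).

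Calls of mitochondrial and glycolytic genes depended on the scaling and on single arrays, as did calls over all genes. Over all 18193 genes 1442 rose with the deposited values, 877 after repeated quantile normalization, 720 after loess and 549 without P3 array 1. Of 44 oxidative phosphorylation genes 8 rose (18.2%, against 7.93% of all genes) and 0 fell with the deposited values, and their median was 0.56. Under each of the other scalings 0 rose and 1 fell, with medians of 0.20 and -0.01. The count of rises was 22 without E18 array 1, 10 without P3 array 3, 4 without P3 array 2, and 2 without E18 array 2 or without P3 array 1. Ndufa5, of respiratory complex I, measured 11.12, 10.78 and 10.96 at P3, against 9.88 and 9.91 at E18, and was called in 6 of the 8 fits. Of 22 glycolysis and glucose transport genes 7 rose (31.8%, against 7.93% of all genes). The count was 2 under each of the other scalings and 2 without P3 array 1 or 2. The diphosphoglycerate mutase gene Bpgm alone held, at 8.22, 7.91 and 8.72 at P3, against 6.36 and 6.69 at E18, and 2 of its 3 probe sets were higher. Of 32 cytosolic ribosomal protein genes 2 rose (6.25%, against 7.93% of all genes), with a median of 0.18, and -0.07 and -0.30 under the other scalings.

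The remaining families had few members that held. Of 28 heat shock and unfolded protein response genes 5 rose (17.9%, against 7.93% of all genes), 2 under each of the other scalings and 3 without E18 array 2 or P3 array 1 or 2. Dnajb9, a chaperone of the endoplasmic reticulum, held, at 9.997, 10.04 and 9.92 at P3, against 8.19 and 8.92 at E18. Of 23 intrinsic apoptosis genes 3 rose (13%) and of 27 cholesterol synthesis genes 2 (7.41%), against 7.93% of all genes. None held, and under each of the other scalings 3 cholesterol genes fell. Of 20 insulin-like growth factor genes 2 rose (10%), with Igfbp4 holding, and of 14 neurotrophin and receptor genes 2 (14.3%), with none holding, against 7.93% of all genes.

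In CPN the same step gave 1470 called genes (8.08%), 702 higher (3.86%) and 768 lower (4.22%), and no array is shared with the CSMN comparison. Of the genes called higher in CSMN 366 were also called higher in CPN, which is 25.4% of the CSMN and 52.1% of the CPN list. Of the genes called lower, 19 were shared, 4.2% of the CSMN and 2.5% of the CPN list. A difference between the 2 steps, tested as an interaction, was called for 676 genes (3.72%), 627 with the CSMN change above the CPN change (3.45%) and 49 below it (0.269%). This balance moved with the scaling, with 615 above and 205 below after repeated quantile normalization and 704 and 171 after loess. With quantile normalization and no P14 arrays it was 875 and 362. Of the 627 genes 215 rose in CSMN and 353 were called lower in CPN but not called in CSMN. Of 26 cell cycle genes 2 were called lower in CSMN and 21 in CPN, and of 18 radial glia and progenitor genes 1 in CSMN and 15 in CPN. Over all genes 2.46% were called lower in CSMN and 4.22% in CPN. Mki67, given above for CSMN, measured 7.40 and 7.45 at P3, against 11.41 and 11.57 at E18 in CPN. Eomes, a factor of intermediate progenitors, measured 5.10, 5.11 and 5.19 at P3, against 5.31 and 5.30 at E18 in CSMN, and in CPN 5.0 and 5.03 at P3, against 11.42 and 10.77 at E18. Of the CPN arrays, those at E18 were thus high in genes of dividing and progenitor cells, and their part in the interactions was not tested.

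Several of the leading genes rose more in CSMN than in CPN. Tmem47 differed by 3.29 ± 0.26 (adjusted p = 8.77e-06) in CSMN and by -0.70 ± 0.28 (adjusted p = 0.182) in CPN, and the interaction was 3.99 ± 0.38 (adjusted p = 3.54e-05). Ankrd34b measured 4.99 and 5.21 at P3, against 4.67 and 4.62 at E18 in CPN, under the array median at both ages, and its interaction was 3.35 ± 0.53 (adjusted p = 0.00202). St6galnac5 and Epha4 were already high in CPN at E18, at 10.07 and 9.80 and at 10.48 and 10.08, and their interactions were 3.41 ± 0.47 (adjusted p = 0.000743) and 3.25 ± 0.48 (adjusted p = 0.00123). Sema3c had an interaction of 3.36 ± 0.37 (adjusted p = 0.000115), and Igfbp4 one of 2.28 ± 0.27 (adjusted p = 0.000239). Cck rose in both types, by 1.97 ± 0.34 (adjusted p = 0.00179) in CPN, with an interaction of 2.37 ± 0.46 (adjusted p = 0.00842). Cacna2d3 did as well, by 2.03 ± 0.29 (adjusted p = 0.000445) in CPN, with an interaction of 1.72 ± 0.40 (adjusted p = 0.0256). For Crym the interaction was 2.16 ± 0.64 (adjusted p = 0.0859) and was not called. The falls of Rhbdl3 and Serinc2 were seen in CPN too, with differences of -2.15 ± 0.18 (adjusted p = 5.08e-06) and -1.48 ± 0.25 (adjusted p = 0.00179) there.

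Called interactions were made for 1 of 37 presynaptic, 3 of 40 glutamate receptor and postsynaptic, 2 of 40 potassium, sodium and HCN channel and 3 of 37 calcium genes, against 3.72% of all genes. Ddn had an interaction of -0.50 ± 0.43 (adjusted p = 0.574), Vsnl1 of -0.25 ± 0.43 (adjusted p = 0.789), Sv2b of 0.48 ± 0.29 (adjusted p = 0.42) and Slc12a5 of -0.49 ± 0.36 (adjusted p = 0.503). Of 15 GABA-A and chloride transport genes 0 had a called interaction by limma, and 6 rose in each type. Presynaptic genes rose for 12 of 37 in CSMN and 20 of 37 in CPN, against 7.93% and 3.86% of all genes. A p that misses the threshold does not show that the changes were equal, and the standard errors above give the precision.

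**Figure D4:**
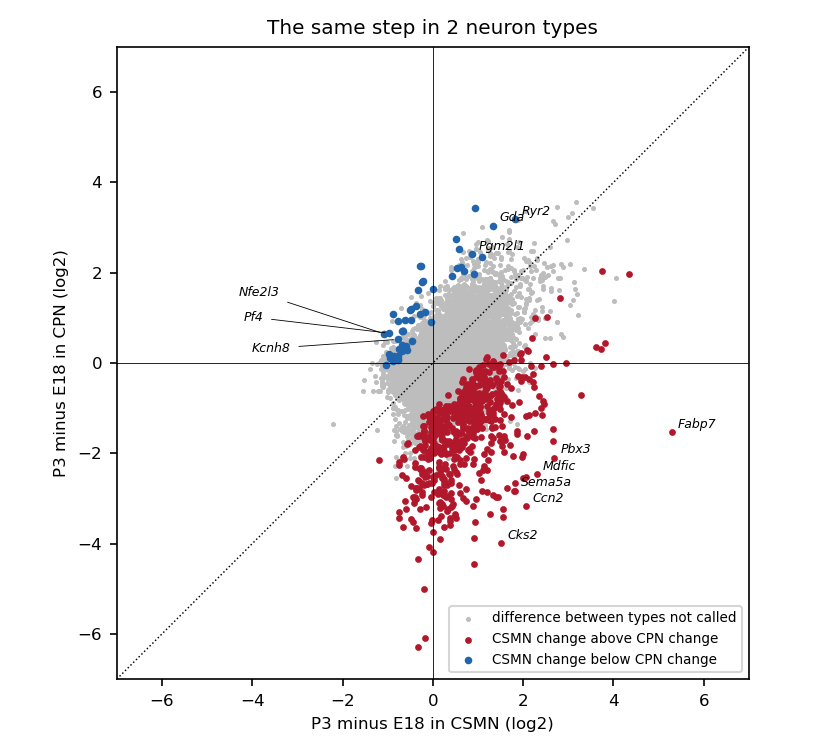
Difference of P3 minus E18 in CSMN (log2, x axis) against that in CPN (log2, y axis) for 18193 genes, with genes whose change differed between the types in colour and the dotted line marking equal change. With the deposited values most coloured points, 627 of 676, lie below the line, and 353 of them are genes called lower in CPN without a call in CSMN. The split moved with the scaling, with 615 below the line and 205 above it after repeated quantile normalization.

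The CSMN arrays of P6 and P14 enter the model's estimate of spread only, and their levels are given as values without a test. Fabp7 measured 5.89 and 4.86 at E18, then 10.44, 9.83 and 11.73 at P3, then 11.60 and 11.42 at P6, and lastly 7.60 and 6.20 at P14, so its high level at P3 and P6 was not seen at P14. Cck measured 6.05 and 5.52 at E18, then 10.37, 10.003 and 9.99 at P3, then 11.04 and 10.74 at P6, and lastly 12.51 and 12.12 at P14, with the highest values at P14. Crym measured 8.28 and 8.37 at E18, then 11.56, 11.62 and 11.45 at P3, then 12.51 and 12.50 at P6, and lastly 12.44 and 11.94 at P14, and Slc12a5 9.73 and 9.17 at E18, then 11.10, 11.11 and 11.13 at P3, then 11.87 and 11.77 at P6, and lastly 13.10 and 12.10 at P14. Nefh, not called at P3, measured 6.61 and 6.59 at E18, then 7.36, 7.60 and 8.11 at P3, then 8.82 and 7.92 at P6, and lastly 11.56 and 10.99 at P14, most of its rise lying after P6. Bcl11b measured 12.19 and 12.61 at E18, then 12.62, 12.60 and 12.23 at P3, then 12.47 and 12.36 at P6, and lastly 11.35 and 11.37 at P14, lowest at P14. Among the falls, Trp53i11 measured 10.10 and 9.48 at E18, then 8.51, 8.15 and 8.06 at P3, then 7.74 and 7.82 at P6, and lastly 7.98 and 9.13 at P14, and Rhbdl3 measured 6.90 and 7.12 at E18, then 5.64, 5.92 and 5.91 at P3, then 6.15 and 6.11 at P6, and lastly 8.36 and 8.47 at P14, higher at P14 than at E18. The P14 arrays of Fabp7 and Trp53i11 differed from each other by over 1 unit. The Gapdh control difference described above was 1.74 on CSMN P14 array 1 and 3.08 on CSMN P14 array 2. Its part in the P14 levels was not tested.

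**Figure D5:**
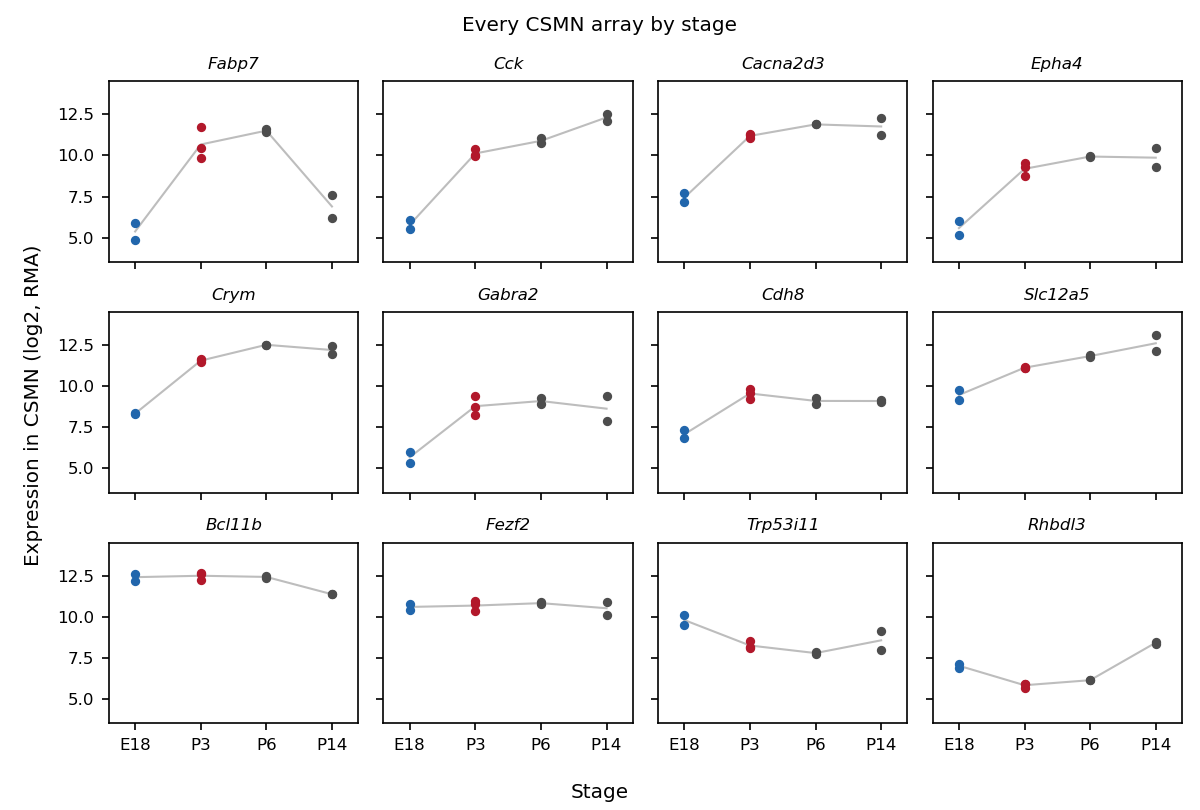
Log2 expression (y axis) of 12 genes on every CSMN array at E18, P3, P6 and P14 (x axis), with lines through the stage means. Fabp7 is high only at P3 and P6, Bcl11b and Fezf2 are high at E18 and P3 alike, and Trp53i11 and Rhbdl3 are lower at P3 than at E18.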

How the data were processed

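The 19 Affymetrix mouse genome arrays were analysed as log2 values that the authors deposited, made with RMA per the submitters' processing notes, with no version given. RNA had been amplified in consecutive rounds of in vitro transcription, per the labels' protocols. Of 45101 probe sets 34945 have 1 gene symbol, 932 several and 9211 none, and 64 are controls. Each gene is its brightest probe set, taken over all arrays, which gave 18193 genes. Other probe sets are given for only some named genes and need not go the same way, and counts of them in 1 direction go by sign.

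Groups were taken from the sample labels. One limma model (version 3.58.1, R 4.3.3) of all 9 groups gave P3 minus E18 in CSMN and in CPN and the difference between them, with 10 residual and 4.46 prior degrees of freedom, moderated tests and Benjamini-Hochberg adjustment over all genes. Checks included other scalings, filters, probe set rules, variance models, each array left out, and a replicate block. The rule of 8 fits was added after the data were seen. The method was tested on simulated data. Figures were drawn with matplotlib 3.10.9.

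The genes named are the 12 largest called differences in each direction, leaving out symbols that are clone or model numbers, the 6 largest interactions in each direction among genes called in both tests, up to 5 called members of each list with the largest difference, 2 or fewer well-known members that were not called, the identity genes and defining markers of other cell types. Others are named as chosen after their values were seen. Members and lists were chosen with earlier results of these data known. Replicate numbers were not taken to pair the arrays. Deviations of same-numbered P3 and E18 arrays correlated at 0.11 and 0.01 in CSMN and at -0.07 and -0.07 in CPN. In a group of 2 arrays the deviations mirror each other, so these values cannot show whether the numbers mark shared batches. Genes outside the table were not analysed here.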

Additional observations from a re-analysis of the deposited data

Results flagged for a closer look

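These 12 genes had the largest called differences between the CSMN change and the CPN change from E18 to P3, among genes also called in CSMN. The difference itself was tested as an interaction in limma over all genes, and no explanation was tested.

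In 6 genes the CSMN change lay above the CPN change. For Fabp7, whose CSMN values are given in the report, CPN measured 12.46 and 11.94 at P3, against 13.78 and 13.67 at E18, and the interaction was 6.81 ± 0.97 (adjusted p = 0.000907). Cks2, a cofactor of cyclin-dependent kinases, measured 7.50, 7.76 and 7.01 at P3, against 5.90 and 5.92 at E18 in CSMN and 6.80 and 6.94 at P3, against 10.96 and 10.75 at E18 in CPN, with an interaction of 5.50 ± 0.59 (adjusted p = 9.54e-05). For both genes every P3 array lay above every E18 array in CSMN, as for 25.2% of all genes, and below every E18 array in CPN. Ccn2, a secreted matrix-associated protein gene, measured 6.93, 6.69 and 8.02 at P3, against 5.32 and 4.96 at E18 in CSMN and 7.17 and 6.90 at P3, against 10.94 and 9.47 at E18 in CPN, with an interaction of 5.24 ± 0.73 (adjusted p = 0.000761). Its CSMN call was lost without E18 array 2 (1.89, adjusted p = 0.103). In CSMN the other probe sets of the guidance gene Sema5a differed by -0.36, 0.22 and -0.09, and none was called. For the homeodomain factor gene Pbx3 the interaction was 4.78 ± 0.86 (adjusted p = 0.00516), for Mdfic, an inhibitor of MyoD family factors, 4.75 ± 0.83 (adjusted p = 0.00404), and for Sema5a 4.64 ± 0.61 (adjusted p = 0.000519). The CSMN calls of these 3 genes were made in 6, 5 and 6 of the 8 fits, and that of Cks2 in 4, being lost without either E18 array and without P3 array 1 or 2.

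In the other 6 the CSMN change lay below the CPN change. The guanine deaminase gene Gda measured 11.57, 11.52 and 11.67 at P3, against 10.16 and 10.36 at E18 in CSMN and 10.85 and 10.54 at P3, against 7.08 and 8.21 at E18 in CPN, so that it rose in both types and the interaction was -1.72 ± 0.38 (adjusted p = 0.0209). Ryr2 rose in both as well, measuring 8.63 and 8.85 at P3, against 5.41 and 5.70 at E18 in CPN, with an interaction of -1.36 ± 0.33 (adjusted p = 0.0327). Pgm2l1, a sugar phosphate enzyme gene, had an interaction of -1.54 ± 0.33 (adjusted p = 0.0178) and rose in both types. The CSMN calls of Gda and Pgm2l1 were both lost under both other scalings, and were made in 6 and 3 of the 8 fits, while that of Ryr2 was made in all 8. Nfe2l3, a transcription factor gene, Pf4, a platelet chemokine gene, and Kcnh8, a potassium channel gene, were called lower in CSMN and not called in CPN. Their interactions were -1.72 ± 0.42 (adjusted p = 0.0361), -1.63 ± 0.42 (adjusted p = 0.0437) and -1.31 ± 0.32 (adjusted p = 0.0378), and their CSMN calls were made in 3, 2 and 1 of the 8 fits.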

How the results depend on the processing

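Of 18193 genes 1890 were called in CSMN, 76.3% of them higher at P3. The number was 1499 (877 higher and 622 lower) after repeated quantile normalization and 994 (720 and 274) after cyclic loess. It was 1587 (1512 and 75) among genes above the median brightness, 1688 (1536 and 152) with the compared groups only, and 1056 (1031 and 25) where a log2 difference of at least 1 was required as well. It was 4030 (2628 and 1402) without the P14 arrays, and 2912 (1448 and 1464) with quantile normalization and no P14 arrays. The last setting, chosen after seeing the data, thus gave more falls than rises. Calls in all 8 fits, also chosen after seeing the data, numbered 337. Leaving out 1 array gave 621 to 4815 calls, the fewest without CSMN P3 array 1 and the most without either CSMN P14 array. For CPN the 1470 calls became 2350 with array weights, 2338 with quantile normalization and no P14 arrays, and 576 to 2310 without 1 array, the fewest without CPN P3 array 2. The 676 interactions became 351 above the median brightness, 1155 without the P14 arrays, 1237 with quantile normalization and no P14 arrays, and 283 to 1436 without 1 array. A replicate block gave 2525 CSMN calls, although whether the numbers mark shared batches is not known. Without probe sets that match several transcripts, 2 named genes took the other sign, Bpgm at -0.11 (adjusted p = 0.797) and Slc2a3 at -0.60 (adjusted p = 0.281), each through another probe set. Leaving out either CSMN P14 array leaves 1 array in that group, which then adds nothing to the estimate of spread. Both of these fits therefore gave the same counts. The Gapdh control difference described above was 3.08 on CSMN P14 array 2, the highest of the series, against 1.74 on CSMN P14 array 1. For the actin control it was 2.16, also the highest, against 0.93. The counts moved when either of these arrays was left out, and the fits cannot tell which array the move came from. The cause of this and of the other shifts was not tested.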

Other observations

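The 9 genes given here with array values were chosen after those were seen and do not stand for gene groups, and each was called higher at P3 in all 8 fits. Dbp, a factor under circadian control, measured 8.84, 8.56 and 9.07 at P3, against 6.66 and 6.63 at E18, a difference of 2.18 ± 0.26 (adjusted p = 0.000296). Nr1d2, a nuclear receptor gene of the clock, measured 8.92, 9.31 and 8.73 at P3, against 5.51 and 7.25 at E18, a difference of 2.61 ± 0.45 (adjusted p = 0.00328), with 1 of its 2 probe sets higher. Per1, another gene of the clock, differed by 0.50 (adjusted p = 0.194) and was not called. The hour of collection is not given in the sources used here, and its part in these values was not tested.

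The epilepsy-linked synaptic ligand gene Lgi1 measured 9.06, 9.23 and 9.26 at P3, against 7.20 and 7.28 at E18, and its relative Lgi2 9.93, 9.74 and 9.73 at P3, against 7.73 and 7.76 at E18. Scg2, a granin of dense-core vesicles, measured 9.47, 9.08 and 9.62 at P3, against 7.25 and 6.92 at E18, and Chga, another granin, 10.42, 10.0001 and 10.22 at P3, against 9.35 and 8.49 at E18. The groups did not overlap for any of these 4 genes, and P3 lay wholly above E18 for 25.2% of all genes. Wnt5a, a secreted Wnt ligand that acts on growing axons, measured 7.15, 7.34 and 6.77 at P3, against 5.50 and 5.59 at E18. Its other probe sets differed by -0.03 to 0.06 and were not called. Met, a receptor for hepatocyte growth factor, measured 10.34, 9.996 and 10.51 at P3, against 7.95 and 8.13 at E18, and Brinp1, of the family of Brinp3, 11.05, 10.82 and 10.83 at P3, against 7.92 and 8.47 at E18. Met was higher by 1 of its 2 probe sets.

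Of 10092 probe sets without a single gene symbol 612 were called in a fit of all probe sets (6.1%), 175 higher and 437 lower, while 8.1% of probe sets with 1 symbol were called in that fit.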
